A study of Rattus norvegicus with 6 samples.

Results

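The genes described here encode the proteins that bud, carry, tether and fuse the membrane vesicles of a cell. They were taken from an array of 1185 probes as every probe whose single gene symbol began with Rab, Arf, Stx, Vamp, Snap, Syt, Nsf, Exoc, Vps, Vti, Gosr, Bet1, Ykt6, Scamp, Copa, Copb, Copg, Ap1, Ap2 or Ap3, or with Sec and a digit. This gave 34 genes with 1 probe each, none chosen by its measured value. Of these, 26 were not on a list of neuronal genes and are called general here, whatever the cells that express them. The other 8 were on that list, which held the genes of synaptic vesicle fusion and every synaptotagmin. Whole rat hearts gave the total RNA, 1 array for each, with 3 hearts subjected to cardiopulmonary bypass (CPB, the heart-lung machine of open-heart surgery) and 3 from sham-operated rats. The labels state no strain, age, length of bypass or time of sampling, and the titles tell the hearts of a group apart by number alone, so p-values measure the spread between these samples.

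Vesicles leave a donor membrane in a protein coat, which adaptor complexes link to the cargo, and small GTPases of the Arf and Rab families mark where they form and where they go. Tethering complexes such as the exocyst then hold a vesicle at its target, and SNARE proteins on both membranes zip together to fuse them. Neurons and neuroendocrine cells add calcium sensors, the synaptotagmins, and dedicated SNAREs, so that fusion waits for a signal. Heart muscle cells use the general machinery to move receptors, channels and hormones to and from the surface, and the heart also holds nerve endings and ganglia.

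Each array had a lowest level that no listed value undercut, and all of its values lay a whole number of steps above that level. This level held 47.3% of all 1185 probes on CPB replicate 3 and 43.3% on sham replicate 3, and 10.7% to 27.4% on the other 4 arrays. Steps differ in size between arrays, so their number is compared only within an array. After normalization the first step above the lowest level was worth 0.05 on the log2 scale on CPB replicate 2, 0.84 on CPB replicate 3 and 0.81 on sham replicate 3. All 6 measured markers of heart muscle cells were above the lowest level on all 6 arrays, and 0 of them had an unadjusted p under 0.05. In Tnni3 all CPB values lay above the sham values (0.47, SE 0.28), and in Pln all lay below (-0.28, SE 0.27). The groups lay apart in this way for 4.22% of all probes.

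General traffic genes were read above the lowest level more often than neuronal ones. Of the 156 readings of the 26 general genes (1 reading per gene and array), 130 were above it (83.3%), against 26 of 48 readings of the 8 neuronal genes (54.2%) and 70.8% of the readings of all probes. On all 6 arrays 14 general genes were above it, as were 2 neuronal genes, Syt7 and Syt6, and 42.0% of all probes. The order was the same on the 4 arrays numbered 1 and 2 (91.3% of general and 65.6% of neuronal readings) and when a reading had to lie at least 2 steps up (61.5% and 31.2%). These shares are descriptions with no test, since the brightness of a probe also depends on its own sequence and labelling. For the same reason no gene's level is set against another's below.

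**Figure D1:**
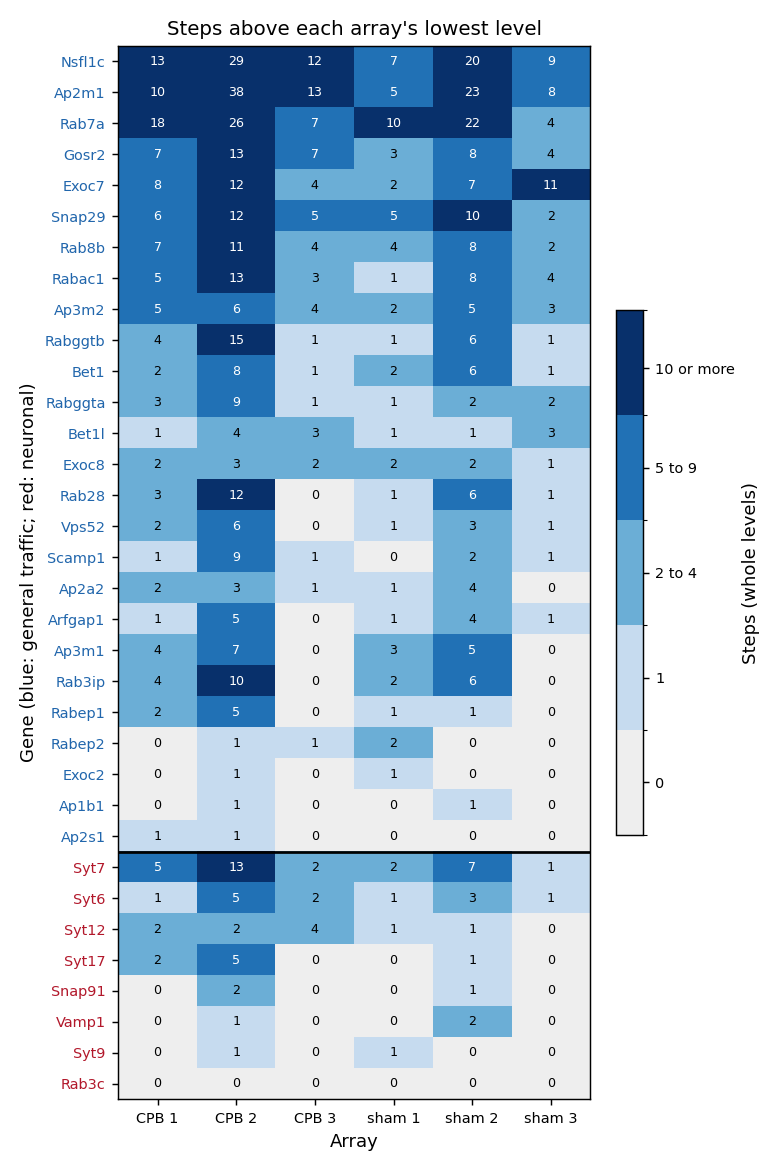
Whole-number steps above the lowest level of each array (columns) for the 26 general genes (blue names) and the 8 neuronal genes (red names). Nsfl1c, Ap2m1 and Rab7a were 4 or more steps up on every array, while Rab3c was at 0 on all 6.

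Ap2m1 and Rab7a serve as examples of general genes read on every array, and Rab3c and Vamp1 of neuronal genes read on none and on 2. Ap2m1 encodes the cargo-binding medium chain of AP-2, the clathrin adaptor of the cell surface. Rab7a encodes the small GTPase of late endosomes and lysosomes. Rab3c is a small GTPase of synaptic vesicles, and Vamp1 (synaptobrevin 1) is a vesicle SNARE of motor and other neurons. The 250 bases before the annotated start of each are shown as reference context for a pair from each side of the contrast, which itself rests on all 34 genes. They come from RefSeq, build GRCr8, on the strand of the gene, with capitals marking GGGCGG (the GC box bound by Sp1-like factors) and TGACGTCA (the cAMP response element) on either strand, which share no letters with each other.
Ap2m1, chr11:93868481-93868730, minus strand: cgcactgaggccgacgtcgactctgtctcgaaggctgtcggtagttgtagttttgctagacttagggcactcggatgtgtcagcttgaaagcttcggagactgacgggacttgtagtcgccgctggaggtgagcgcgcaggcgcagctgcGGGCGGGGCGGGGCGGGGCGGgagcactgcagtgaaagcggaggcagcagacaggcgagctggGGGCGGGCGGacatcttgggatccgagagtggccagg
Rab7a, chr4:122064186-122064435, minus strand: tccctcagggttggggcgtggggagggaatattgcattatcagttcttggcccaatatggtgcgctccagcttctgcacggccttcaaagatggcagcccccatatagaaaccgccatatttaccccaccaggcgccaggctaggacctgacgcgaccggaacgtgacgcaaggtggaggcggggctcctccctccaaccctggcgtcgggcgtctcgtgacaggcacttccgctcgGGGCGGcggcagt
Rab3c, chr2:43575944-43576193, minus strand: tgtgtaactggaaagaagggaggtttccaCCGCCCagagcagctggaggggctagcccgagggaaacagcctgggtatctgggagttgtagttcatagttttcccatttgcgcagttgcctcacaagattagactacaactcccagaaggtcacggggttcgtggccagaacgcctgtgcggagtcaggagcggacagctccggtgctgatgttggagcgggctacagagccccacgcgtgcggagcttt
Vamp1, chr4:159698644-159698893, plus strand: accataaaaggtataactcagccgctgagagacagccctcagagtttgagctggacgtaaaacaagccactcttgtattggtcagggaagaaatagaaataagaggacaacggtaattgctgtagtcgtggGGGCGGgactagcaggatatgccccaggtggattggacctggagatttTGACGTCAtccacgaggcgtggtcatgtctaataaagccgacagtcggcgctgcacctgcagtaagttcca
The GC box letters occur 6 times in the Ap2m1 window, some overlapping each other, and once in each of the others, and 30.5% of all 33469 rat promoter windows of this length hold them. Windows were matched for 27 of the 34 members and for 4 of the 8 neuronal genes, too few for a share over either list. Of the 23 general genes with a window, 13 (56.5%) held the GC box letters, and Ap2m1 and Rab28 had the most, 6 each. The 4 matched neuronal windows all held them. The cAMP response element letters occur in the Vamp1 window, as in 1.59% of all windows. The E-box letters CACGTG, searched as well, are in 5.59% of all windows and in none of the 4 windows printed above. A match of letters is a description of the reference sequence and does not show that a factor binds there.

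No vesicle traffic gene was shown to differ between CPB and sham hearts beyond the spread between arrays. The limma fit called 0 of the 34 genes at an adjusted p under 0.05, against a background of 0 of 1185 probes, and 0 of the 34 had an unadjusted p under 0.05, against 2.95% of all probes. In none of the 34 did the 3 CPB values lie wholly above or below the 3 sham values, which happened for 4.22% of all probes. The adjusted p of the members ran from 0.909 to 1. With 3 arrays against 3, an exact permutation test of a single gene cannot go below p = 0.1.

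The differences were small against their intervals. Among the 16 members above the lowest level on all 6 arrays, the log2 difference (CPB minus sham) ran from -0.14 to 0.44, with standard errors from 0.32 to 0.48. The 95% intervals of these 16 reached from 2.15-fold lower (Exoc7) to 2.38-fold higher (Rabggtb). For each gene, a change of any size inside its own interval is not excluded at this precision. Only Syt12 differed by more than 0.5 in either direction, 1 of 34 members against 9.79% of all probes.

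**Figure D2:**
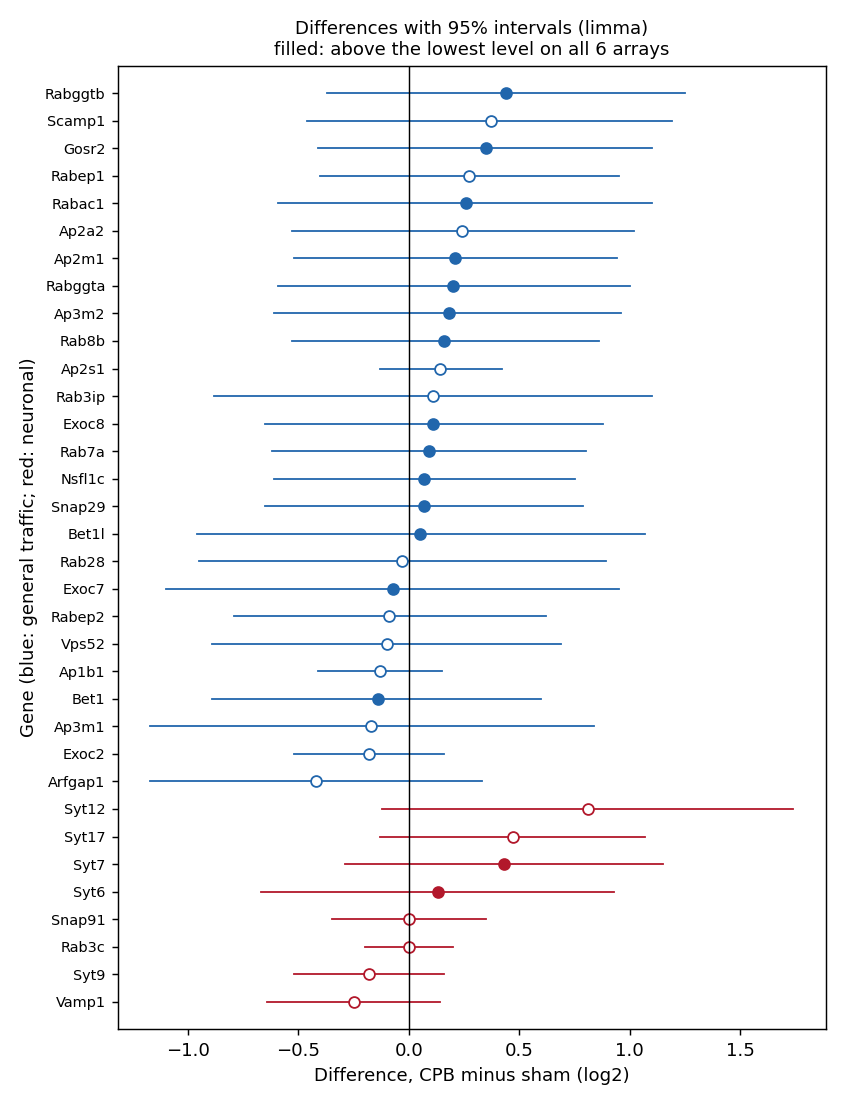
Log2 difference, CPB minus sham, with its 95% interval from limma for the 26 general genes (blue) and the 8 neuronal genes (red). Filled points mark the 16 genes above the lowest level on all 6 arrays, and every interval includes 0.

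Of the 26 general genes, 17 were higher and 9 lower in CPB hearts, and their median log2 difference was 0.099. These counts include genes mostly at the lowest level, Ap2s1 among the higher and Ap1b1 and Exoc2 among the lower. Of the 8 neuronal genes, 4 were higher, 2 lower and 2 equal, with a median of 0.064. Over all probes 501 were higher, 622 lower and 62 equal, with a median of -0.029. The members' balance moved with the scaling of the arrays: 21 were higher and 11 lower after quantile normalization, 13 and 21 in the values as deposited, and 26 and 8 after median scaling. The median over all probes moved in the same order, to -0.288 as deposited and 0.106 after median scaling. Without both arrays numbered 3 the members split into 17 higher and 15 lower. No direction can be read for the family as a whole.

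**Figure D3:**
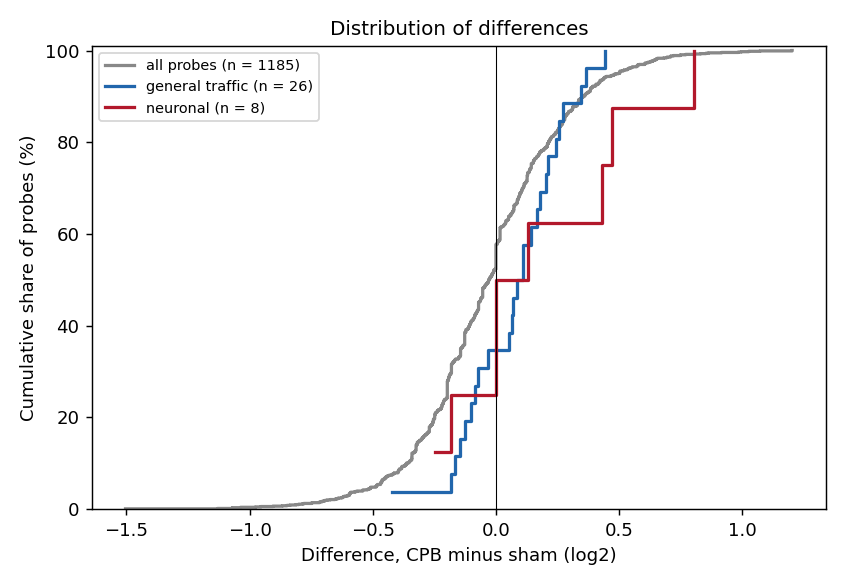
Cumulative share of probes (%) against the log2 difference, CPB minus sham, for all 1185 probes (grey), the 26 general genes (blue) and the 8 neuronal genes (red). The medians are -0.029, 0.099 and 0.064, and no general gene reached 0.5 in either direction.

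Clathrin adaptor subunits came first along the route. AP-2 gathers cargo into clathrin-coated pits at the cell surface. Ap2m1 was at a normalized log2 intensity of 11.13, 11.54 and 12.19 on CPB replicates 1, 2 and 3 and at 10.88, 11.60 and 11.74 on the sham replicates. The groups overlapped, with a difference of 0.21 (SE 0.34, limma adjusted p = 0.999) and of -0.06 without CPB replicate 3. Ap2a2, a large chain of the same complex, differed by 0.24 (SE 0.37) and had the opposite sign as deposited (-0.13). The small chain Ap2s1 stood 0 steps up on every sham array and on CPB replicate 3, and 1 step up on CPB replicates 1 and 2, so it has no measured level in sham hearts and no fold is given.

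AP-1 works between the trans-Golgi network and endosomes, and AP-3 sorts cargo to lysosomes. The AP-1 large chain Ap1b1 was at the lowest level on 4 of 6 arrays and 1 step above it on CPB replicate 2 and sham replicate 2, with a difference of -0.13 (SE 0.13, limma adjusted p = 0.909). Here too the difference is one of step size, with the step worth 0.05 on CPB replicate 2 and 0.43 on sham replicate 2. Both medium chains of AP-3 were measured. Ap3m2, known chiefly from the neuronal form of AP-3 but not on the neuronal list used here, was above the lowest level on all 6 arrays, at 10.35, 9.73 and 10.81 in CPB and 9.76, 10.03 and 10.58 in sham hearts. Ap3m1, of the form found in all tissues, was above it on 4, and at it on both arrays numbered 3. They differed by 0.18 (SE 0.37) and -0.17 (SE 0.47), and Ap3m1 was at 0.16 after median scaling.

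Rab GTPases carry a lipid tail that Rab geranylgeranyl transferase attaches, and both chains of this enzyme were measured. The catalytic beta chain Rabggtb was at 10.09, 10.50 and 9.52 in CPB hearts and 9.20, 10.09 and 9.49 in sham hearts. The lowest CPB value lay within the sham range, and the difference was 0.44 (SE 0.38, limma adjusted p = 0.909). In steps, Rabggtb stood at 4, 15 and 1 on the CPB arrays and at 1, 6 and 1 on the sham arrays. The alpha chain Rabggta differed by 0.20 (SE 0.37), with 9.76, 10.05 and 9.52 in CPB and 9.20, 9.35 and 10.16 in sham hearts. Both chains were higher in all 14 alternatives, by 0.18 to 0.71 for Rabggtb and 0.03 to 0.79 for Rabggta, without passing the threshold in any. Some alternatives alter only the error model or the set of probes fitted, and so cannot change a difference. Rabggtb stayed at 0.44 in those by construction. Counts of alternatives, here and below, are therefore not counts of separate checks.

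Among the Rabs themselves, Rab7a was at 11.89, 11.13 and 11.54 in CPB hearts and 11.88, 11.54 and 10.87 in sham hearts. The difference of 0.09 (SE 0.33) turned its sign without CPB replicate 1 (-0.10). Rab8b, which serves transport to the cell surface, differed by 0.16 (SE 0.33), and Rab28 by -0.03 (SE 0.43), with 0.24 after median scaling. Rab3ip (Rabin8), the exchange factor that loads Rab8 with GTP, was at the lowest level on both arrays numbered 3 and differed by 0.11 (SE 0.47), and by -0.04 as deposited.

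Rab partners gave the same outcome. Rabac1 (PRA1), which binds prenylated Rabs at the Golgi, differed by 0.26 (SE 0.40), with CPB values within 10.35 to 10.49 and sham values spread from 9.20 to 10.87. The rabaptins Rabep1 and Rabep2 are effectors of Rab5 on early endosomes. Rabep1 differed by 0.27 (SE 0.32) with 4 arrays above the lowest level, and Rabep2 by -0.09 (SE 0.33) with 3. Arfgap1, which switches off Arf1 on Golgi membranes, had the most negative difference of the 34. It was at 8.99, 9.52 and 8.68 in CPB and 9.20, 9.76 and 9.49 in sham hearts, with CPB replicate 3 at the lowest level (-0.42, SE 0.35, limma adjusted p = 0.909). CPB replicate 2 lay above 2 of the 3 sham values, and the difference stayed negative in all 13 alternatives that gave a value (-0.67 to -0.23).

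Tethering subunits spanned the range of detection. The exocyst tethers secretory vesicles to the plasma membrane. Exoc2 was at the lowest level on 4 arrays and 1 step above it on CPB replicate 2 and sham replicate 1, with a difference of -0.18 (SE 0.16, limma adjusted p = 0.909). That step was worth 0.05 on CPB replicate 2 and 0.59 on sham replicate 1, so the difference is one of step size. Exoc8 was above the lowest level on all 6 arrays by 1 to 3 steps and differed by 0.11 (SE 0.36), with -0.21 as deposited. Exoc7 was also above it on all 6, at 10.87, 10.25 and 10.81 in CPB and 9.76, 10.25 and 12.15 in sham hearts. Sham replicate 3 gave its highest normalized value, and its difference of -0.07 (SE 0.48) became 0.63 without that array. Vps52, of the complex that tethers endosome-derived vesicles at the Golgi, differed by -0.10 (SE 0.37), with 0.07 after median scaling.

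SNAREs of the general pathway were above the lowest level on all 6 arrays, though Bet1 and Bet1l by only 1 step on some. Gosr2 (membrin) acts between endoplasmic reticulum and Golgi, and was at 10.69, 10.35 and 11.54 in CPB and 10.32, 10.35 and 10.87 in sham hearts. CPB replicate 2 and sham replicate 2 had the same value, and the difference was 0.35 (SE 0.36, limma adjusted p = 0.909), and 0.00 without CPB replicate 3. Its partner Bet1 was at 9.49, 9.89 and 9.52 in CPB and 9.76, 10.09 and 9.49 in sham hearts. The difference was -0.14 (SE 0.35) and came to 0.00 after median scaling. Bet1l, a related SNARE of the Golgi, differed by 0.05 (SE 0.48) and by -0.21 as deposited. Snap29, which serves fusion of endosomes and autophagosomes, differed by 0.07 (SE 0.34) and by -0.05 as deposited.

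The remaining general genes were Scamp1 and Nsfl1c. Scamp1, a membrane protein of recycling carriers, was at 8.99, 10.05 and 9.52 in CPB and 8.61, 9.35 and 9.49 in sham hearts, with sham replicate 1 at the lowest level. Its difference of 0.37 (SE 0.39, limma adjusted p = 0.917) was 0.07 without sham replicate 1 and 0.09 without CPB replicate 2. Nsfl1c (p47), a cofactor of the p97 ATPase in rebuilding Golgi membranes, was at 11.45, 11.26 and 12.12 in CPB and 11.33, 11.39 and 11.91 in sham hearts, and differed by 0.07 (SE 0.32).

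**Figure D4:**
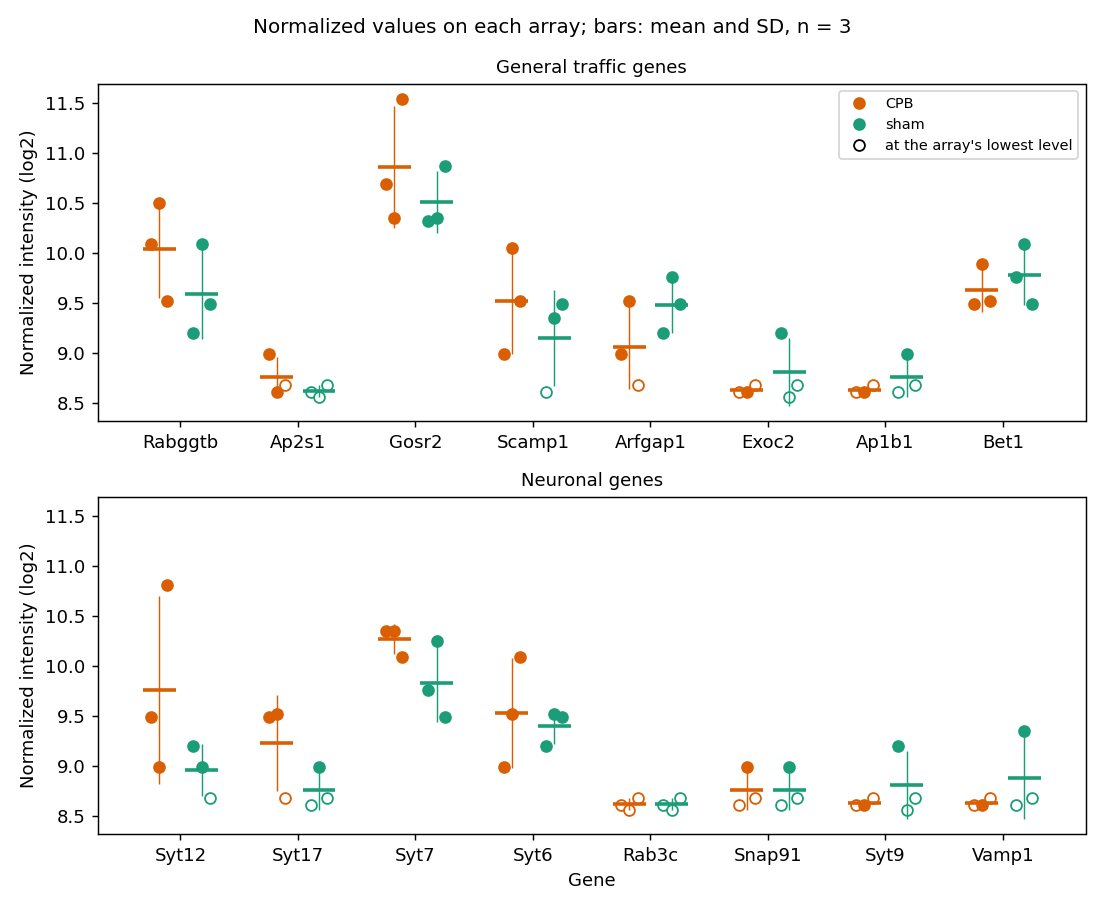
Normalized log2 intensity on each array for the 8 general genes with the smallest unadjusted p in each direction (top) and the 8 neuronal genes (bottom). Thick bars are means and thin bars 1 SD of 3 arrays, open points are at the lowest level of their array, and the CPB (orange) and sham (green) points overlap for every gene.

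Of the 8 neuronal genes, 4 synaptotagmins were read on 3 or more arrays, and the other 4 genes on 2 or fewer. Synaptotagmins sit on vesicles, and many of them trigger fusion when they bind calcium. Syt7, a high-affinity calcium sensor that also acts in lysosome exocytosis outside the nervous system, was at 10.35, 10.35 and 10.09 in CPB and 9.76, 10.25 and 9.49 in sham hearts. The highest sham value lay within the CPB range, and the groups differed by 0.43 (SE 0.34, interval from -0.29 to 1.15, limma adjusted p = 0.909). In steps, Syt7 stood at 5, 13 and 2 on the CPB arrays and at 2, 7 and 1 on the sham arrays. It was higher in CPB hearts in all 14 alternatives (0.22 to 0.63).

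Syt12, a synaptotagmin that does not bind calcium, had the largest difference of the 34 genes. It was at 9.49, 8.99 and 10.81 in CPB and 9.20, 8.99 and 8.68 in sham hearts. CPB replicate 3 stood highest, CPB replicate 2 equalled sham replicate 2 to 2 decimals, and sham replicate 3 was at the lowest level. The groups differed by 0.81 (SE 0.44, interval from -0.12 to 1.74, limma adjusted p = 0.909). The difference was 0.28 without CPB replicate 3 and 0.15 without both arrays numbered 3.

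Syt17 was at 9.49, 9.52 and 8.68 in CPB and 8.61, 8.99 and 8.68 in sham hearts, where CPB replicate 3 and sham replicates 1 and 3 were at the lowest level. The difference was 0.47 (SE 0.28, limma adjusted p = 0.909), and it stayed above 0 in all 13 alternatives that gave a value (0.27 to 0.77). Syt6 was at 8.99, 9.52 and 10.09 in CPB and 9.20, 9.52 and 9.49 in sham hearts. The groups differed by 0.13 (SE 0.38, limma adjusted p = 0.999), which turned to -0.21 as deposited. CPB hearts held both the lowest and the highest value of Syt6. When single arrays were left out, 3 synaptotagmins had an unadjusted p under 0.05 once each. These were Syt12 without CPB replicate 2 (limma adjusted p = 0.949), Syt17 without CPB replicate 3 (limma adjusted p = 0.883) and Syt7 without sham replicate 2 (limma adjusted p = 0.603). The same fits gave an unadjusted p under 0.05 to 2.36%, 3.63% and 6.08% of all probes, so 1 of 34 members in each is near the background. Without both arrays numbered 3 Rabggta was such a member (limma adjusted p = 0.635), against 4.98% of all probes.

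The other 4 neuronal genes gave 6 readings above the lowest level out of 24. Rab3c was at it on all 6 arrays. Vamp1 was 1 step up on CPB replicate 2 and 2 steps up on sham replicate 2, and at the lowest level elsewhere (-0.25, SE 0.18, limma adjusted p = 0.909). Snap91 (AP180), which assembles clathrin on synaptic vesicle membrane, was 2 and 1 steps up on the same arrays, and its groups had equal means. Syt9 was 1 step up on CPB replicate 2 and sham replicate 1 (-0.18, SE 0.16). A value at the lowest level shows only that the probe was not above it, not that the transcript was absent, and differences between groups that are mostly at it have little content.

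Markers of nerve and glia, which could bring neuronal transcripts into a whole-heart extract, were read beside these genes. Of the 13 measured markers, 4 were above the lowest level on all arrays (Prph, Gfap, Ncam1 and S100b), and 67.9% of their readings were above it. None of the 13 was at it on all 6. Their summed level on the log2 scale was 13.03 to 13.26 in CPB and 13.29 to 13.77 in sham hearts. All CPB sums thus lay below all sham sums, though the nearest values of the groups almost touched. In the highest sum, on sham replicate 3, L1cam stood at 11.91, against 8.56 to 9.20 on the other sham arrays. Of the 13, 4 were higher and 9 lower (median -0.181), 0 had an unadjusted p under 0.05, and Gfap alone had groups apart (lower in CPB), against 4.22% of all probes. The 6 measured leukocyte markers summed to 13.13 to 13.72 in CPB and 13.57 to 13.90 in sham hearts, with 1 higher and 5 lower (median -0.267). Lyc2 (-0.85, SE 0.32) and S100a9 (-1.07, SE 0.47) had an unadjusted p under 0.05, against 2.95% of all probes, and Lyc2 had groups apart (limma adjusted p = 0.909 for both). The 1 higher marker, Cd8a, differed by 0.92 (SE 0.47, limma adjusted p = 0.909). It stood at 11.93 on CPB replicate 3, against 10.09 and 9.73 on the other CPB arrays. The part of both marker lists in the values of the neuronal genes was not tested. In a whole-heart extract, fewer cells of a type and less RNA per cell cannot be told apart.

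Other genes of the same pathways, from a list of 94 names outside the naming rule, were measured for 35. None passed the adjusted threshold in limma, 22 were higher, 12 lower and 1 equal in CPB hearts, and the median was 0.075. Values were above the lowest level on all arrays for 21 of the 35. With an unadjusted p under 0.05 there was 1, against 2.95% of all probes, and 4 had groups that did not overlap, against 4.22%. The 1 was Bsn, bassoon of the presynaptic active zone, with 2 CPB arrays at the lowest level and a difference of -0.59 (SE 0.23, limma adjusted p = 0.909). It was only 1 step above the lowest level on CPB replicate 2 and on every sham array, so the difference rests on single steps.

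In 3 further genes all CPB values lay above the sham values. Unc13c, a vesicle-priming factor, differed by 0.61 (SE 0.33), with sham replicates 1 and 3 at the lowest level and CPB replicate 3 only 1 step up. Syngr2, a synaptogyrin of general tissues, and Synj1, a phosphoinositide phosphatase of endocytosis, differed by 0.49 (SE 0.33) and 0.50 (SE 0.35), and both were singled out after their values were seen. For Synj1, sham replicate 3 was at the lowest level. By unadjusted p the next genes were Rph3a, a Rab3 effector, at 0.50 (SE 0.30) and Tgoln2, a trans-Golgi membrane protein, at 0.57 (SE 0.38) on the higher side. On the lower side they were Dnm1, the neuronal dynamin, at -0.32 (SE 0.26) and Nsg1 at -0.19 (SE 0.26). These 4 had overlapping groups and a limma adjusted p of 0.909 or more. The coat proteins clathrin heavy chain (Cltc) and light chain (Cltb), named after their values were seen, differed by 0.14 (SE 0.33) and -0.03 (SE 0.26) and were above the lowest level on all 6 arrays.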

How the data were processed

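The labels name no unit. The deposited values were taken as inverse hyperbolic sine values, which lie close to natural logs. The reason was that in every array 2 times their hyperbolic sine formed a grid of equal steps, to within 0.000167 of a step. How the authors obtained and normalized them is not known here. The highest array median was 2.52 times the lowest in linear units. Linear values were therefore quantile normalized with averaged ties before log2 was taken, and nothing was added to them first.

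Arrays were grouped and numbered by title. Groups were compared in R 4.3.3 by limma 3.58.1 (linear model, empirical Bayes, variance trend, two-sided), and p was adjusted by Benjamini-Hochberg across the 1185 probes (threshold 0.05). The fit was run on simulated data with large planted changes and with neither a lowest level nor steps. That run checks the code, not how well small changes or dim probes would be read here. In the fit of the hearts, values at an array's lowest level entered as measured. The platform annotation gave 1 symbol to 1113 probes, several to 2 and none to 70, and all 34 members matched RefSeq by gene identifier.

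The members, the neuronal list, the 94 pathway genes and the marker lists (nerve and glia, heart muscle cell, leukocyte) were chosen with earlier results of these data known. All members are named. By rule, values on every array are given for the neuronal genes and for the 4 general genes with the smallest unadjusted p in each direction, and some others were added after their values were seen. From the pathway list the 3 genes with the smallest unadjusted p in each direction are named. Same-numbered arrays of both groups deviated together (r = 0.240, 0.277 and 0.296 over all probes), so the numbers may pair the hearts, which the labels do not state. A fit with the number as a block is among the alternatives of the closing section.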

Additional observations from a re-analysis of the deposited data

How the results depend on the processing

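No member passed the adjusted threshold in any of 13 alternatives, nor without both arrays numbered 3, which was added after seeing the data, as were the 2-step rule and the alternatives for the pathway list. The replicate block (pairing by number) gave 0 members and 0 probes, and the smallest adjusted p of a member was 0.724. Over all probes 1 passed as deposited, and 0 to 1 when single arrays were left out. As deposited the median difference was -0.089 for the members, -0.323 for the neuronal genes and -0.111 for the pathway list; after median scaling it was 0.305 for the members and 0.283 for the pathway list. The 2 neuronal genes above the lowest level on all arrays had a median of 0.280, and 31.2% of neuronal readings were at least 2 steps up. Signs turned as deposited for Ap2a2 (-0.13), Bet1l (-0.21), Exoc8 (-0.21), Rab3ip (-0.04), Snap29 (-0.05) and Syt6 (-0.21), and after median scaling for Ap3m1 (0.16), Exoc7 (0.22), Rab28 (0.24) and Vps52 (0.07). Without both arrays numbered 3 they turned for Ap2a2 (-0.18), Exoc7 (0.56), Exoc8 (-0.21), Nsfl1c (-0.03), Rab28 (0.49), Rab7a (-0.21), Rab8b (-0.07), Snap29 (-0.38), Syt6 (-0.04) and Vps52 (0.32). When each array was left out in turn, differences spanned both signs for 19 members: Ap2a2 (-0.02 to 0.54), Ap2m1 (-0.06 to 0.44), Ap3m1 (-0.69 to 0.30), Ap3m2 (-0.09 to 0.44), Bet1 (-0.30 to 0.01), Bet1l (-0.41 to 0.59), Exoc2 (-0.27 to 0.02), Exoc7 (-0.56 to 0.63), Exoc8 (-0.14 to 0.24), Nsfl1c (-0.20 to 0.25), Rab28 (-0.39 to 0.44), Rab3ip (-0.34 to 0.60), Rab7a (-0.20 to 0.32), Rabac1 (-0.20 to 0.69), Rabep2 (-0.43 to 0.30), Snap29 (-0.17 to 0.27), Syt6 (-0.16 to 0.38), Syt9 (-0.27 to 0.02) and Vps52 (-0.32 to 0.21). Between the deposited and the median-scaled values every difference moves by the same amount, as for Ap2a2 (-0.13 and 0.26) and Exoc7 (-0.17 and 0.22). Apart from this shift, the cause of the changes in sign was not tested. In all alternatives that gave them a value, 8 members kept their sign: Rabggtb, Scamp1, Rabep1, Rabggta, Syt12, Syt17 and Syt7 stayed higher and Arfgap1 lower. The replicate block and the fit without a variance trend are among these alternatives and cannot turn a sign. One step above the lowest level was worth up to 0.84 in log2 (CPB replicate 3), which bounds how finely a dim member could be read there.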
